A study of Homo sapiens with 4 samples.

Results

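The genes examined here are 10 feedback inhibitors of mitogen-activated protein kinase (MAPK) signaling: the dual-specificity phosphatases DUSP1, DUSP4, DUSP5, DUSP6 and DUSP10, the Sprouty genes SPRY1, SPRY2 and SPRY4, and the Spred genes SPRED1 and SPRED2. They were taken by gene symbol from 16370 genes listed for either parental line, and all 10 were present in the files of both. Expression was measured by RNA sequencing in the hepatoma lines Hep3B and Huh7 (hepatocellular carcinoma cells, HCC) and in Hep3B-C and Huh7-C, the stem-like cancer cells cultured from them (hepatic cancer stem cells, HCSC). The labels name no treatment or genetic change in any line. Each line was represented by 1 library, so a difference between an HCSC line and its parent compares 2 libraries, and culture, library preparation and cell state cannot be told apart.

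MAPK cascades carry signals from growth factor receptors through RAS, RAF and MEK to the kinase ERK, and stress signals to the kinases JNK and p38. The dual-specificity phosphatases remove phosphate from both activating residues of these kinases, while Sprouty and Spred proteins act further up, on the steps between receptor, RAS and RAF. Several of these genes are themselves transcribed in response to ERK, so that an active pathway raises its own brakes. In hepatocytes the pathway is driven by EGF, HGF and fibroblast growth factors, among them FGF19 acting through FGFR4 and its co-receptor KLB.

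Total gene counts ranged from 2896418 in Hep3B to 4641927 in Hep3B-C, and 3 counts corresponded to between 0.646 and 1.04 CPM, where a count is divided by the library total and scaled to 1000000. All 8 hepatocyte markers examined had more than 3 counts in every library, with summed levels of 57854 and 71301 CPM in Hep3B and Hep3B-C and of 51150 and 26620 CPM in Huh7 and Huh7-C. Of the stem cell markers, PROM1 and EPCAM had more than 3 counts in every library, whereas THY1 was at 0 or not listed in 3 libraries. In Hep3B-C, a line labelled as stem-like, PROM1 (371.5 to 77.8 CPM) and EPCAM (514.1 to 176.7 CPM) were called down against Hep3B, where 30.4% of all genes were. Each lost its call under 1 other setting, EPCAM with TMM library sizes (-0.95 on the log2 scale) and PROM1 with GC and length trends removed (-0.86). CDH5, PTPRC, CD3E and DCN, which define endothelial cells, leukocytes and fibroblasts, had no count in any library. The summed level of the 6 fibroblast markers ranged from 10.8 to 45.2 CPM, that of the 4 endothelial markers from 2.80 to 21.5 CPM and that of the 4 leukocyte markers from 100.1 to 271 CPM. The endothelial sum was highest in Huh7-C, where PECAM1 alone made it up (93 counts, against 17 in Huh7), and the leukocyte sum in Hep3B-C, where CD68 held 1254 of 1260 counts. Among the fibroblast markers COL3A1 went from 0 to 58 counts in Huh7-C (FDR 3.4e-17), while PDGFRB went from 186 to 2. The summed level of hepatocyte markers was lowest in Huh7-C, where 5 of the 10 MAPK feedback genes were called up. The part of any of these in the results was not tested. In the Hep3B pair the log2 fold-change (HCSC/HCC) followed GC content (Spearman 0.63 across 11338 genes with a GC value) and gene length (Spearman -0.43 across 11433 genes), and its median was -0.55. TMM library sizes raised every value in that pair by 0.60 on the log2 scale. In the Huh7 pair these coefficients were -0.06 and 0.31, the median was 0.06 and TMM shifted values by -0.04. Genes are not independent replicates, and these coefficients describe the libraries.

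DUSP1 was down-regulated in both HCSC lines, and it was the member with the widest range of levels. In Huh7-C, DUSP4, DUSP6, SPRY1, SPRY4 and SPRED1 were up-regulated between 2.21- and 4.997-fold. In Hep3B-C no member was called up, and DUSP10, SPRED1 and SPRED2 were called down together with DUSP1. Calls required an FDR of at most 0.01 in the Audic-Claverie test, a Poisson test of the counts of 2 libraries, and a change of at least 1 on the log2 scale. In Hep3B-C 0 of 10 members were up and 4 down, against 13.2% and 30.4% of all genes listed for the pair. In Huh7-C 5 were up and 1 down, against 4.19% and 4.15% of all genes. The median log2 fold-change of the 10 genes was -0.60 in Hep3B-C, where all genes with at least 10 counts also had a median of -0.60, and 1.03 in Huh7-C, where all such genes had a median of 0.06. In Hep3B-C 3 members were called down and none up with TMM library sizes, against 18.1% down and 21.6% up of all genes, and 1 down with GC and length trends removed, against 13.0% down and 10.1% up.

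**Figure D1:**
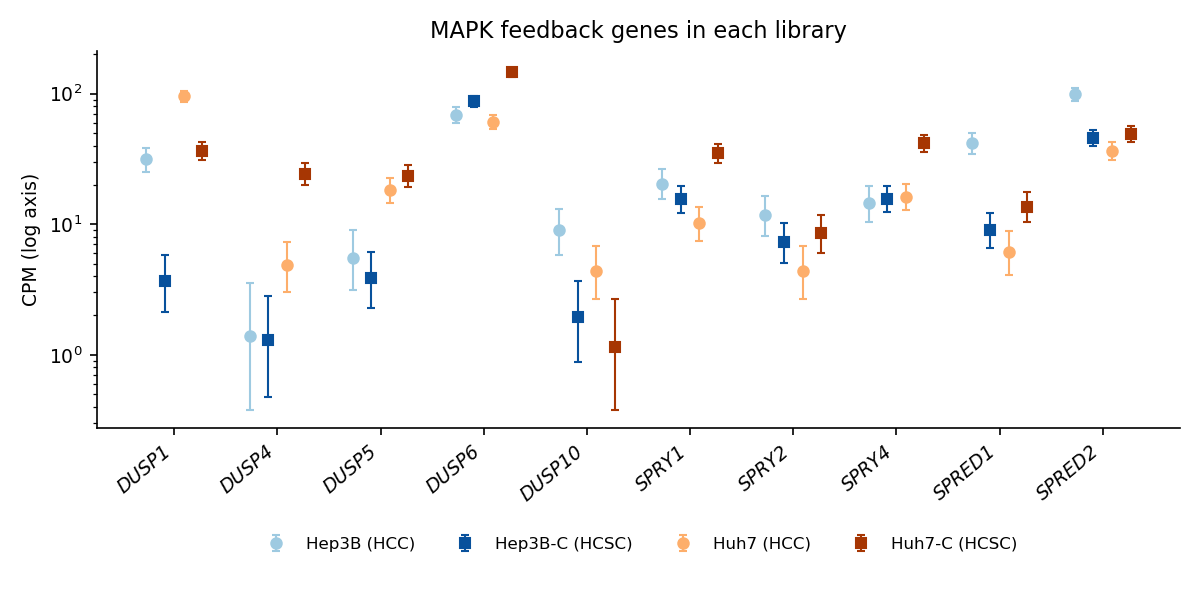
Levels of the 10 MAPK feedback genes in each library, in CPM on a log axis, with exact 95% Poisson intervals that cover counting error only. Circles are HCC lines and squares HCSC lines, with the Hep3B pair in blue and the Huh7 pair in orange and brown. DUSP1 lies lower in each HCSC line than in its parent, and DUSP4, DUSP6, SPRY1 and SPRY4 are highest in Huh7-C.

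Among the nuclear phosphatases, DUSP1 (Entrez 1843; GRCh38 chromosome 5, 172768090 to 172771195, minus strand) is an immediate early gene whose product acts on JNK and p38 as well as ERK. It had 91 counts in Hep3B (31.4 CPM, 95% interval 25.3 to 38.6), 17 in Hep3B-C (3.66 CPM, 2.13 to 5.86), 432 in Huh7 (95.2 CPM, 86.4 to 104.6) and 157 in Huh7-C (36.2 CPM, 30.8 to 42.4). Both HCSC lines were thus below their parents, while Huh7-C and Hep3B had overlapping intervals. DUSP1 was 8.58-fold lower in Hep3B-C (95% interval 5.07 to 15.4, log2 fold-change -3.07, SE 0.38, FDR 6.6e-22) and 2.63-fold lower in Huh7-C (2.18 to 3.18, log2 fold-change -1.39, SE 0.13, FDR 1.1e-26). Among genes with at least 20 counts, 4.41% in the Hep3B pair and 3.51% in the Huh7 pair had a lower log2 fold-change than DUSP1.

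DUSP4 (Entrez 1846) encodes a nuclear phosphatase of ERK and JNK. It had 4 counts in Hep3B (1.38 CPM), 6 in Hep3B-C (1.29 CPM), 22 in Huh7 (4.85 CPM) and 105 in Huh7-C (24.2 CPM). The Huh7-C library stood apart from the other 3. DUSP4 was up-regulated 4.997-fold in Huh7-C (95% interval 3.13 to 8.31, log2 fold-change 2.30, SE 0.34, FDR 7.9e-14), and 99.2% of genes with at least 20 counts in that pair had a lower log2 fold-change. In the Hep3B pair the ratio was 0.936 with an interval from 0.222 to 4.51, too wide for a change of several fold in either direction to be seen.

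DUSP5 (Entrez 1847; GRCh38 chromosome 10, 110497838 to 110511544, plus strand), a nuclear phosphatase specific for ERK, had 16 counts in Hep3B (5.52 CPM), 18 in Hep3B-C (3.88 CPM), 83 in Huh7 (18.3 CPM) and 102 in Huh7-C (23.5 CPM). Its levels separated the parental lines rather than HCSC from HCC. The ratio HCSC/HCC was 0.702 in the Hep3B pair (95% interval 0.338 to 1.47) and 1.29 in the Huh7 pair (0.954 to 1.74), and neither passed the test (FDR 0.36 and 0.22).

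DUSP6 (Entrez 1848; GRCh38 chromosome 12, 89347232 to 89353271, minus strand) is the cytoplasmic phosphatase of ERK and a widely used transcript readout of ERK activity. It had 199 counts in Hep3B (68.7 CPM, 95% interval 59.5 to 78.9), 406 in Hep3B-C (87.5 CPM, 79.2 to 96.4), 277 in Huh7 (61.0 CPM, 54.1 to 68.7) and 632 in Huh7-C (145.8 CPM, 134.7 to 157.7). The parental lines did not differ beyond their intervals, and both HCSC lines were above them. DUSP6 was up-regulated 2.39-fold in Huh7-C (2.07 to 2.76, log2 fold-change 1.25, SE 0.10, FDR 1e-34). In Hep3B-C the ratio was 1.27 (1.07 to 1.52, log2 fold-change 0.35, SE 0.12, FDR 0.0096), which was under the minimum fold. The log2 value was 0.90 above that pair's median gene, and 69.3% of genes with at least 20 counts there had a lower one. With TMM library sizes it was 0.94. With DESeq2 size factors it was 1.03, past the threshold, where 22.9% of all genes were called up.

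DUSP10 (Entrez 11221; GRCh38 chromosome 1, 221701424 to 221742176, minus strand) prefers JNK and p38 over ERK. The study placed it among miRNA targets of the MAPK pathway that it had chosen in part on these libraries, so its direction here is no independent evidence. It had 26 counts in Hep3B (8.98 CPM), 9 in Hep3B-C (1.94 CPM), 20 in Huh7 (4.41 CPM) and 5 in Huh7-C (1.15 CPM), and intervals of neighbouring levels overlapped throughout. It was called down in Hep3B-C, 4.63-fold (95% interval 2.10 to 11.2, log2 fold-change -2.16, SE 0.55, FDR 4.1e-05). The level in Huh7-C was 3.82-fold lower than in Huh7 (1.39 to 13.0, log2 fold-change -1.83, SE 0.69), with an FDR of 0.013 that missed the threshold. The study's targets of this kind were genes it called down in both HCSC lines, so its call in Huh7-C differs from the one here.

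The Sprouty proteins bind adaptors near activated receptors and restrain the signal to RAS and RAF. SPRY1 (Entrez 10252; GRCh38 chromosome 4, 123396795 to 123403760, plus strand) had 59 counts in Hep3B (20.4 CPM), 72 in Hep3B-C (15.5 CPM), 46 in Huh7 (10.1 CPM) and 151 in Huh7-C (34.8 CPM). It was up-regulated 3.44-fold in Huh7-C (95% interval 2.46 to 4.89, log2 fold-change 1.77, SE 0.24, FDR 3.9e-14). Of the 4 libraries Huh7-C thus had the highest level and Huh7 the lowest, the latter with an interval that overlapped that of Hep3B-C. The ratio in the Hep3B pair was 0.761 (0.532 to 1.09, FDR 0.16), and its log2 value changed sign with TMM library sizes, from -0.40 to 0.20.

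SPRY4 (Entrez 81848; GRCh38 chromosome 5, 142310427 to 142326455, minus strand) had 42 counts in Hep3B (14.5 CPM), 73 in Hep3B-C (15.7 CPM), 74 in Huh7 (16.3 CPM) and 181 in Huh7-C (41.8 CPM). The first 3 libraries had overlapping intervals, and Huh7-C was above them. The increase in Huh7-C was 2.56-fold (95% interval 1.94 to 3.40, log2 fold-change 1.35, SE 0.20, FDR 1.6e-11). The ratio in the Hep3B pair was 1.08 (0.732 to 1.63, FDR 0.81). SPRY2 (Entrez 10253; GRCh38 chromosome 13, 80335976 to 80340951, minus strand) had 34 counts in Hep3B (11.7 CPM), 34 in Hep3B-C (7.32 CPM), 20 in Huh7 (4.41 CPM) and 37 in Huh7-C (8.54 CPM). It passed in neither pair, with ratios of 0.624 (0.376 to 1.03, FDR 0.076) and 1.94 (1.10 to 3.52, FDR 0.060).

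The Spred proteins bring neurofibromin, the RAS-inactivating product of NF1, to the membrane. SPRED1 (Entrez 161742; GRCh38 chromosome 15, 38252326 to 38357249, plus strand) had 121 counts in Hep3B (41.8 CPM), 42 in Hep3B-C (9.05 CPM), 28 in Huh7 (6.17 CPM) and 59 in Huh7-C (13.6 CPM). Hep3B stood above the other 3 libraries. SPRED1 was called in opposite directions, 4.62-fold lower in Hep3B-C (95% interval 3.23 to 6.73, log2 fold-change -2.20, SE 0.26, FDR 9.2e-20) and 2.21-fold higher in Huh7-C (1.38 to 3.59, log2 fold-change 1.13, SE 0.33, FDR 0.0023). It is the longest member, at 7255 bases, and the poorest in GC, at 38.9%. Once trends with GC content and length were taken out, its log2 fold-changes were -0.10 and 0.67, and neither passed.

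SPRED2 (Entrez 200734; GRCh38 chromosome 2, 65310851 to 65432637, minus strand) had 286 counts in Hep3B (98.7 CPM), 213 in Hep3B-C (45.9 CPM), 166 in Huh7 (36.6 CPM) and 213 in Huh7-C (49.1 CPM). Hep3B was again the highest, and the HCSC lines had overlapping intervals. It was called down in Hep3B-C, 2.15-fold (95% interval 1.80 to 2.58, log2 fold-change -1.10, SE 0.13, FDR 6.8e-17). That value was -0.51 with TMM library sizes and -0.19 with GC and length trends removed, both under the minimum fold. In Huh7-C the ratio was 1.34 (1.09 to 1.66, FDR 0.017).

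**Figure D2:**
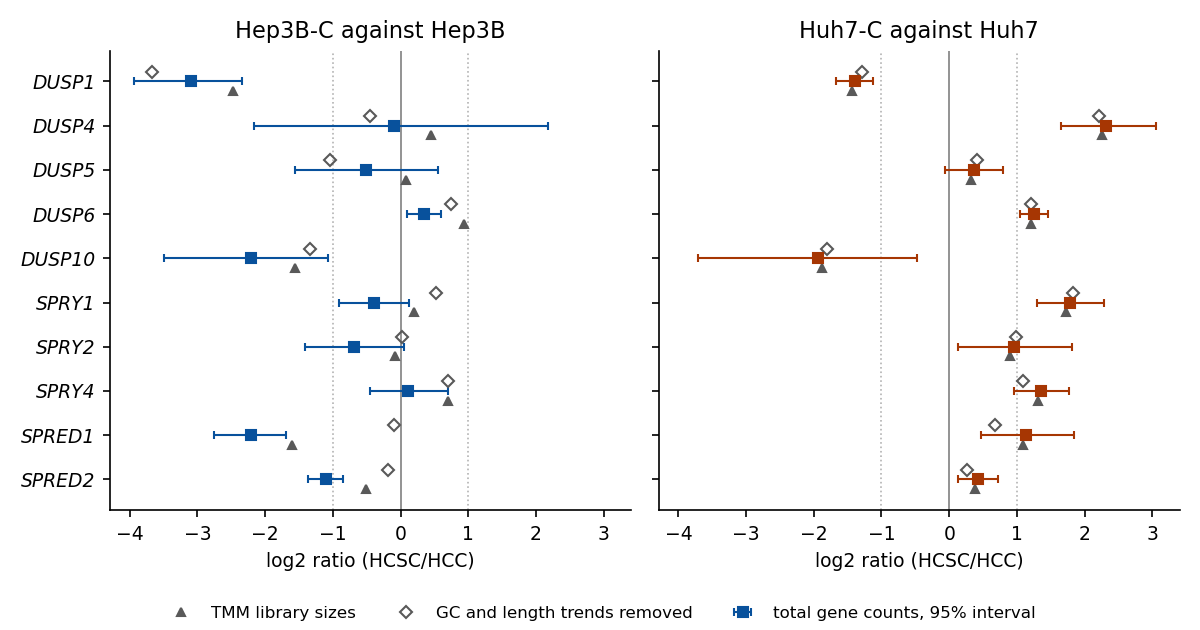
Log2 ratio (HCSC/HCC) of each gene in the Hep3B pair (left) and the Huh7 pair (right). Squares are ratios of counts per total gene count with exact 95% intervals, triangles the values with TMM library sizes and diamonds those with GC and length trends removed; dotted lines mark the minimum fold. The 3 values of a gene lie within 0.5 of each other in the Huh7 pair, whereas in the Hep3B pair SPRED1 and SPRED2 come to -0.10 and -0.19 with the trends removed.

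Members were next placed on the GC and length trends of the Hep3B pair. Their lengths ran from 2016 bases (DUSP1) to 7255 bases (SPRED1) with a median of 2720, and their GC content from 38.9% (SPRED1) to 56.4% (DUSP4) with a median of 49.4%, near the medians of all genes (2761 bases and 49.7%). DUSP1, at 55.1% GC, lay far below genes of its GC content and length, and its log2 fold-change went from -3.07 to -3.67 with both trends removed. SPRED1 and SPRED2 lay close to the trends. DUSP10 kept a value of -1.33 with both trends removed, with an FDR of 0.023. DUSP6 and SPRY4 lay above the trends, at 0.75 and 0.70 with both removed. With the length trend alone removed SPRY4 reached 1.42 and was called up (FDR 8.2e-07). The part of these trends in the members' values was not tested otherwise.

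**Figure D3:**
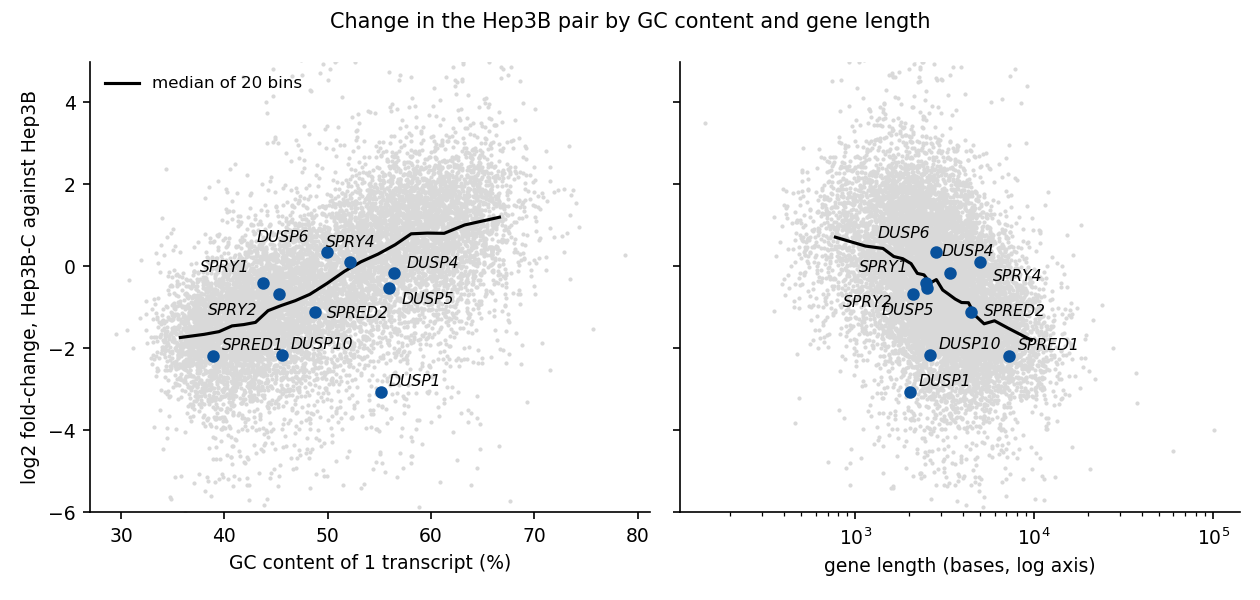
Log2 fold-change of Hep3B-C against Hep3B by GC content of 1 transcript per gene (left) and by gene length in bases on a log axis (right). Grey points are genes with at least 20 counts in the pair, 11433 by length and 11338 by GC content, of which 67 in the plot by length lie outside the vertical axis, the line joins medians of 20 bins, and blue points are the MAPK feedback genes. DUSP1 lies below the line in both panels. SPRED1 comes to -0.68 with the length trend alone removed and to -0.10 with both trends removed.

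To see whether the change itself differed between the lines, log2 fold-changes of the pairs were subtracted (Hep3B-C pair minus Huh7-C pair). The difference passed for 6 of 10 members, all with the lower value in Hep3B-C, where 49.7% of 11151 genes passed in either direction. With total counts the members' share was thus not far from that of all genes. The difference was -3.32 for SPRED1 (SE 0.42, FDR 8.1e-15), -2.17 for SPRY1 (SE 0.35, FDR 2e-09) and -1.68 for DUSP1 (SE 0.40, FDR 6e-05). With TMM library sizes, SPRY1 (-1.53) and SPRED1 (-2.69) passed and the other 8 did not, where 48.2% of all genes passed. With the length trend removed, 4 members passed, where 39.0% of all genes did. SPRED1 was then -1.38, SPRED2 -0.34 and not called, and SPRY4 turned to 0.31. With GC and length trends removed (a fit added once the values were known), DUSP1 (-2.38) and SPRY1 (-1.30) passed, SPRED1 was -0.78, and 25.6% of all genes passed. SPRY1 passed in each of these fits. The difference of DUSP6, -0.91 (SE 0.16) with total counts and -0.27 with TMM, was under the minimum in both.

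**Figure D4:**
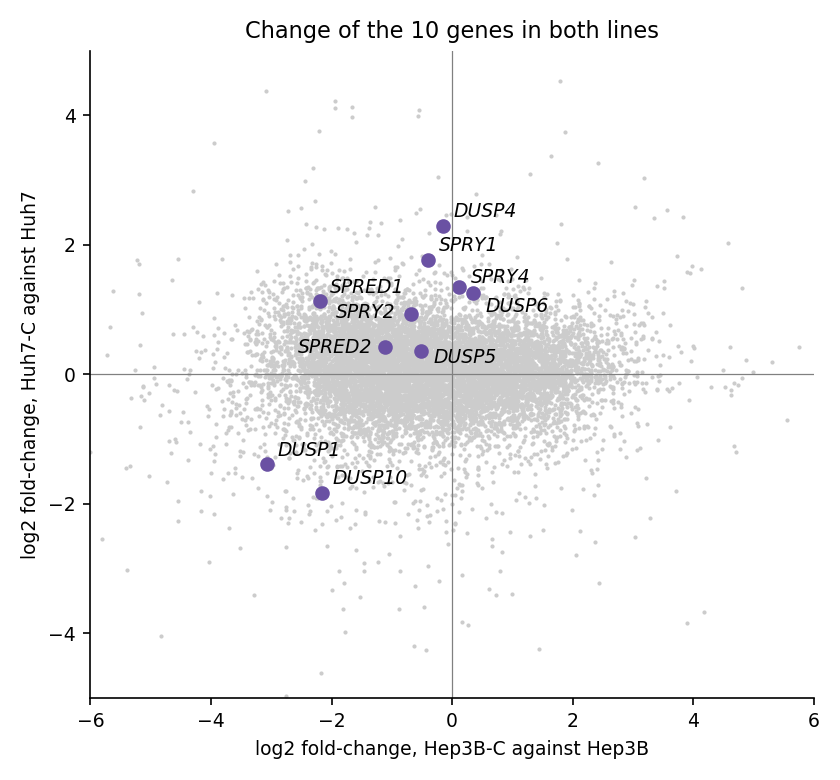
Log2 fold-change in the Huh7 pair against that in the Hep3B pair. Grey points are 10294 genes with 20 counts or more in both pairs, of which 38 lie outside the axes, and purple points are the 10 MAPK feedback genes. DUSP1 and DUSP10 lie low on both axes, and DUSP4, SPRY1, SPRY4 and DUSP6 lie high on the Huh7 axis and near 0 on the Hep3B axis.

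A further comparison set both HCSC lines against both HCC lines, with the parental line as a block. No member passed in edgeR, where the lowest adjusted p of a member was 0.999, and 0.0342% of 11691 genes were called up and 0.0428% down. At an unadjusted p under 0.05, 1 of 10 members was found, DUSP1 (log2 fold-change -2.04), where 372 of 11691 genes were found. DESeq2 called no member either. DUSP1 again was the 1 member below that value (log2 fold-change -1.99), where 432 of 16370 genes were below it. DUSP10 had log2 fold-changes of -1.88 and -1.84, DUSP4 1.502 and 1.44, and DUSP6 0.97 and 1.03 in edgeR and DESeq2. With 2 libraries per group and 1 residual degree of freedom, these values show the direction of the mean change and little of its spread.

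The parental lines differed among themselves, in levels scaled to total gene counts without removal of GC or length trends. Intervals of these ratios cover counting error only, and the part of GC content and length in them was not tested. SPRED1, the longest member and the poorest in GC, went from -2.20 to -0.10 in the Hep3B pair with those trends removed. Relative to Huh7, Hep3B had 6.77-fold more SPRED1 (95% interval 4.46 to 10.6), 2.70-fold more SPRED2 (2.22 to 3.29), 2.66-fold more SPRY2 (1.49 to 4.88) and 2.01-fold more SPRY1 (1.34 to 3.02). Huh7 had 3.03-fold more DUSP1 (2.41 to 3.84) and 3.31-fold more DUSP5 (1.92 to 6.06). The intervals of the ratio for DUSP6 (0.933 to 1.36) and SPRY4 (0.594 to 1.32) spanned equality. Between the HCSC lines the Spred and SPRY2 ratios (Hep3B-C/Huh7-C) were nearer to 1, at 0.665 (0.436 to 1.004) for SPRED1, 0.934 (0.768 to 1.13) for SPRED2 and 0.858 (0.522 to 1.41) for SPRY2. For DUSP1, DUSP4, DUSP5, DUSP6 and SPRY4 the ratio was further from 1 than between the parental lines. Huh7-C had 9.89-fold more DUSP1 (5.98 to 17.4), 18.7-fold more DUSP4 (8.33 to 52.2) and 6.07-fold more DUSP5 (3.65 to 10.6). It had 2.66-fold more SPRY4 (2.01 to 3.53) and 1.67-fold more DUSP6 (1.47 to 1.89). For DUSP4 that interval overlapped the one between the parental lines (3.51-fold more in Huh7, 1.19 to 14.0). SPRY1 turned, with 2.25-fold more in Huh7-C (1.69 to 3.02). DUSP10 had a ratio of 2.04 (1.09 to 3.85) between the parental lines and of 1.68 (0.506 to 6.38) between the HCSC lines.

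Levels of different genes were compared per length, as CPM per kilobase of the listed gene length (RPKM). The 10 genes summed to 90.6 and 59.9 RPKM in Hep3B and Hep3B-C, and to 97.7 and 125.9 RPKM in Huh7 and Huh7-C. These sums are scaled to total gene counts, and the fall in Hep3B-C depends on that choice. TMM library sizes raised every log2 fold-change in the Hep3B pair by 0.60, about the size of the fall. DUSP6 was the most abundant of the 5 phosphatases in 3 libraries, at 24.4 RPKM in Hep3B, 31.0 in Hep3B-C and 51.7 in Huh7-C, and DUSP1 was the most abundant in Huh7 (47.2 RPKM, against 21.6 for DUSP6). DUSP6 made up 53.0% of the summed phosphatase level in Hep3B and 87.4% in Hep3B-C. In the Huh7 pair the leading phosphatase changed from DUSP1 (59.6%) to DUSP6 (59.7%). SPRY1 led the Sprouty genes in each library, with between 43.2% and 53.0% of their sum, and SPRED2 held between 79.4% and 90.6% of the Spred sum.

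**Figure D5:**
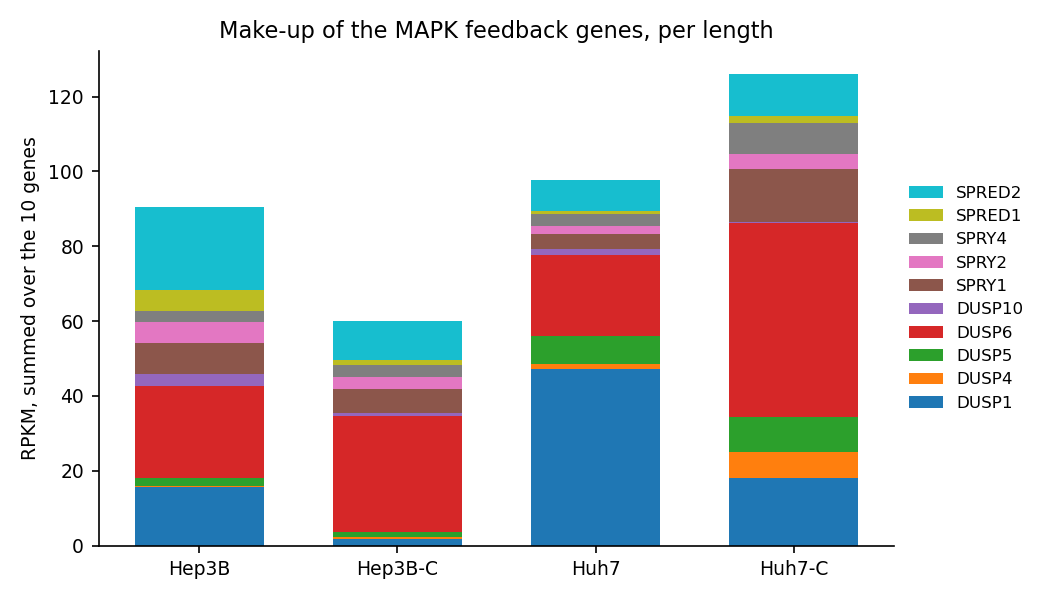
Summed RPKM of the 10 MAPK feedback genes in each library, scaled to total gene counts and stacked by gene. DUSP6 (red) is the largest part in Hep3B, Hep3B-C and Huh7-C, and DUSP1 (blue) in Huh7.

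The genes with a profile over the 4 libraries most like that of DUSP6 were GEMIN5, WASF2 and RRP1B, by Euclidean distance of centred log2(CPM + 1) values among 7159 other genes that had 100 counts or more in both pairs. Their distances were 0.12, 0.13 and 0.17, against a median of 1.47 over all these genes. GEMIN5 had 64.2, 77.8, 59.7 and 129.0 CPM in Hep3B, Hep3B-C, Huh7 and Huh7-C. With 4 points per gene, this is a description of likeness.

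Promoter sequence is shown for 3 members with a single start in the RefSeq table: DUSP1, which fell in both lines, and DUSP6 and SPRY4, which rose in Huh7-C. Each is the 250 bases before the start in the RefSeq table (GRCh38.p14), 5′ to 3′ on the gene's strand, at chr5:172771196-172771445 (minus strand) for DUSP1, chr12:89352502-89352751 (minus strand) for DUSP6 and chr5:142324248-142324497 (minus strand) for SPRY4. The RefSeq starts of DUSP6 and SPRY4 lie inside the GENCODE genes given above, whose own starts are further upstream, so these windows precede 1 of the annotated starts. Capitals mark matches on either strand to TGACG, the core of the cAMP response element that CREB and related factors bind, to its full palindrome TGACGTCA, to the ETS core CCGGAAG or to the AP-1 site TGANTCA.
DUSP1: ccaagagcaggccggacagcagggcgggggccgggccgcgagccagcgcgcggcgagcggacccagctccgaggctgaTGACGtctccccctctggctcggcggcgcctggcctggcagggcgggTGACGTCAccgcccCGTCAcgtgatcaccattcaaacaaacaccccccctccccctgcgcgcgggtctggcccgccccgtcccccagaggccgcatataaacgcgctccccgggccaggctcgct
DUSP6: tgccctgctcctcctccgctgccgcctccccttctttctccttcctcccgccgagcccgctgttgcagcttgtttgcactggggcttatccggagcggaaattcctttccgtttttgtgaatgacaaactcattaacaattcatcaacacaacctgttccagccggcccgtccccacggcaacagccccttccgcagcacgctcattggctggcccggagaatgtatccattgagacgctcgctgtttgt
SPRY4: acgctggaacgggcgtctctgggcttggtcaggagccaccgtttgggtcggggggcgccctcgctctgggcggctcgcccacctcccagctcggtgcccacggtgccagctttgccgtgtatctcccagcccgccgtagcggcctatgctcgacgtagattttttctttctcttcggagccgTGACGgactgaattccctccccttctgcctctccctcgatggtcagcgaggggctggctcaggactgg

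The DUSP1 window held 4 matches to TGACG over both strands, including the matches on either strand of 1 full TGACGTCA, a sequence present in 1.65% of 35116 windows of the same length. TGACG was present in 21.2% of windows. SPRY4 held 1 match to it and DUSP6 none. The ETS core, found in 8.52% of windows, and the AP-1 site, found in 6.57%, were in none of these 3. The promoter table held 8 of the 10 members, in 13 windows, and lacked DUSP4 and DUSP5. Of all 13 windows, 1 of SPRY1 held the ETS core and none held the AP-1 site. A match is a description of letters in a window, and its absence says nothing of a factor elsewhere.

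Other genes of the pathway were taken from lists of their roles. Among the other MAPK phosphatases, 4 of 5 were listed in each pair. DUSP9, an ERK phosphatase related to DUSP6, was called up in Hep3B-C (63.2 to 193.2 CPM, log2 fold-change 1.61, SE 0.12, FDR 3.9e-52) and down in Huh7-C (64.6 to 30.5 CPM, log2 fold-change -1.08, SE 0.15, FDR 1.5e-12). The value in Hep3B-C was 0.42 with GC and length trends removed and did not pass. DUSP16, a JNK and p38 phosphatase like DUSP10, was called down in Hep3B-C (134.3 to 44.2 CPM, log2 fold-change -1.60), and was -0.94 with both trends removed. Of the 13 atypical phosphatases, which mostly act outside the MAPK family, 12 were listed in the Hep3B pair. In Hep3B-C 2 were up and 2 down, against 13.2% and 30.4% of all genes. STYXL1 (58 to 387 counts) and DUSP14 (17 to 71 counts) were up, and DUSP11 (59 to 38 counts) was down. DUSP14 lost its call with the length trend removed (0.98) and DUSP11 with TMM (-0.71), and no gene of the list passed in Huh7-C. Of SPRY3 and SPRED3, neither reached 10 counts in a pair.

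Inhibitors that act at the receptor were lower in Hep3B-C, where 7 of 8 were called down and 0 up, against 30.4% of all genes called down, with a median log2 fold-change of -2.34 over those with at least 10 counts (-0.60 over all such genes). That median is the same with SOCS2 at the bound that 3 counts allow. ERRFI1, which blocks the EGF receptor kinase, fell from 583 to 71 counts (201.3 to 15.3 CPM, log2 fold-change -3.71, SE 0.18, FDR 6.4e-160), and SOCS2, which limits cytokine and growth hormone signaling, from 12 to 0 counts (FDR 1.9e-05). IL17RD, an antagonist of FGF signaling, fell from 41 to 7 counts (log2 fold-change -3.15). With TMM library sizes 4 of the 8 were called down, and with GC and length trends removed 3, where 18.1% and 13.0% of all genes were. IL17RD lost its call in the latter. In Huh7-C 2 were up and 2 down, against 4.19% and 4.15% of all genes. LRIG1, which promotes degradation of receptors of the EGF family, rose from 2.20 to 13.8 CPM (log2 fold-change 2.59, SE 0.48), and CBL, a ubiquitin ligase that Sprouty proteins bind, from 147 to 338 counts (log2 fold-change 1.26). CBL was named after its value had been seen, and it passed in neither line with the length trend removed (log2 fold-change 0.74 in Huh7-C). SOCS3 fell from 61 to 11 counts (log2 fold-change -2.35) and SOCS2 from 49 to 11 (log2 fold-change -2.04). In Hep3B-C, LRIG1 and CBL were called down (log2 fold-change -1.28 and -1.38), but neither passed there with TMM library sizes (-0.68 and -0.78) or with the length trend removed (-0.04 and 0.42).

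Among 23 genes of the RAS to ERK core, 4 were called up and 11 down in Hep3B-C, against 13.2% and 30.4% of all genes. Their median log2 fold-change was -0.97 there. None was called in Huh7-C, against 4.19% up and 4.15% down of all genes, and the median was 0.28. In Hep3B-C, HRAS rose from 12 to 147 counts (2.88 on the log2 scale, SE 0.42), while the exchange factor SOS1 fell from 282 to 63 (-2.83, SE 0.20) and RASA2 from 38 to 7 (-3.04, SE 0.58). SOS1 lost its call when GC and length trends were removed (-0.57). With GC and length trends removed, 2 were up and 1 down, against 10.1% and 13.0% of all genes. Of 15 JNK and p38 kinases, 14 were listed in the Hep3B pair and 13 in the Huh7 pair. Of these, 3 were up and 6 down in Hep3B-C, against the same 13.2% and 30.4% of all genes, and none was called in Huh7-C. MAP2K3, an activator of p38, rose from 82 to 562 counts (log2 fold-change 2.09), and MAP3K8 and MAP3K1 were called down (-3.51 and -2.31). MAP3K1 lost its call with the length trend removed (-0.76). With GC and length trends removed 1 gene of this list was up and 2 down, against 10.1% and 13.0% of all genes. MAP3K8 is also among the miRNA targets that the study chose, as are PDGFRA and IGF2 below.

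Of 13 receptors, 1 was up and 8 were down in Hep3B-C, against 13.2% and 30.4% of all genes. The largest changes were in PDGFRA (70 to 5 counts), FGFR2 (297 to 30 counts) and KLB (486 to 151 counts). KLB lost its call with GC and length trends removed (-0.84). Between 3 and 5 receptors were called down with TMM or with trends removed, against 13.0% to 18.1% of all genes. The 1 receptor called up was FGFR4, named after its value had been seen, from 443 to 2624 counts (1.88 on the log2 scale, SE 0.07). It was also called up with TMM, with the length trend and with both trends removed, at between 1.08 and 2.48. In Huh7-C FGFR4 was at 1067 and 1055 counts in parent and HCSC line. There 1 receptor was down, against 4.15% of all genes. It was PDGFRB, also on the list of fibroblast markers, which fell from 186 to 2 counts (88.8-fold lower, 95% interval 24.2 to 738.9). Of 13 ligands, 11 were listed in the Hep3B pair and 9 in the Huh7 pair. In Hep3B-C 4 were down, against 30.4% of all genes. Among them were IGF2 (4104 to 70.2 CPM), the EGF receptor ligand AREG (162 to 28 counts) and FGF19 (17 to 2 counts, 13.6-fold lower, 95% interval 3.23 to 121.6). The 1 ligand called in Huh7-C was HGF, the ligand of the receptor MET, which rose from 1 to 152 counts (a ratio of 159.1 with a 95% interval from 28.1 to 6327, FDR 4.1e-44). Of all genes 4.19% were called up there.

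Transcripts known to respond to ERK numbered 21 in the list, of which 20 were listed in the Hep3B pair and 19 in the Huh7 pair. In Huh7-C 4 were up and 1 down, against 4.19% and 4.15% of all genes, with a median log2 fold-change of 0.65. The ETS factors ETV1, ETV4 and ETV5 rose there from 7.05 to 18.5, from 233.2 to 491.3 and from 25.6 to 58.6 CPM (log2 fold-changes 1.37, 1.07 and 1.19), as did KLF10 (13.0 to 29.5 CPM, log2 fold-change 1.18). ETV1 was under the minimum fold with the length trend removed (0.98). KLF10 was called in the opposite direction in Hep3B-C, where it fell from 328 to 112 counts (log2 fold-change -2.23). It was also called down there with TMM library sizes (-1.63) and with GC and length trends removed (-1.21). ETV4 in Huh7-C and KLF10 in both lines were named after their values had been seen. KLF6, a zinc finger factor, fell in both lines, with log2 fold-changes of -3.29 (SE 0.13) and -1.23 (SE 0.16). In Hep3B-C 2 were up and 5 down, against 13.2% and 30.4% of all genes, with a median of -0.44. With TMM library sizes 4 were up and 3 down, against 21.6% and 18.1% of all genes. With GC and length trends removed 4 were up and 6 down, against 10.1% and 13.0%. ETV5 had a log2 fold-change of 0.56 there and was called up under those settings (1.16 and 1.35). PHLDA2, an imprinted growth regulator, rose from 3 to 179 counts (a ratio of 37.2, 95% interval 12.5 to 182.2). ETV4 rose from 86 to 757 counts (2.45 on the log2 scale, SE 0.16). Housekeeping genes gave a scale for these numbers, with 4 of 10 called up and 1 down in Hep3B-C (median 0.72), among them GAPDH up (5464 to 17314 CPM), SDHA up (69.4 to 246.7 CPM) and HPRT1 down (23.8 to 8.402 CPM), and none called in Huh7-C (median -0.09).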

How the data were processed

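mRNA libraries of 4 cell lines, 1 per line, were read on the Genome Analyzer II of Illumina. The authors removed adapter and low-quality reads, aligned the remainder to NCBI Build 36.1 with NextGENe, and deposited read counts per gene as whole numbers without normalization, beside a gene length in bases. The gene annotation, strand and treatment of multiply mapping reads are not given in the sources used here, so reads of overlapping or antisense genes cannot be told apart. A gene without a read in either line of a pair is left out of that pair's files and was taken as 0 counts in the fit over all 4 libraries.

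Genes were joined by Entrez ID. From the deposited counts, CPM (counts scaled to a library total of 1000000) and RPKM (CPM per kilobase of the listed length) were computed. Intervals are exact 95% Poisson intervals for levels and exact conditional binomial intervals for ratios, and they cover counting error only. The HCSC and HCC line of each pair were compared by the Audic-Claverie test, a Poisson test of a pair of counts, chosen here because the study's methods name a method based on that distribution, with Benjamini-Hochberg adjustment (FDR) over all genes listed. Genes were called at an FDR of at most 0.01 with a log2 fold-change of at least 1 in size, after 0.5 had been added to each count. The difference of the changes in both pairs was tested by a Wald test with Poisson errors, among genes that had 10 counts or more in both pairs. For the comparison of both HCSC with both HCC lines, the test was edgeR 4.0.16 (quasi-likelihood, TMM, filterByExpr, FDR at most 0.05), with the parental line as a block. The labels give that pairing, and it left 1 residual degree of freedom. Deviations of paired lines from their group means correlated across genes (Pearson 0.468). Scripts were tested on simulated data.

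The alternatives tried were library sizes from TMM or from DESeq2 1.42.0, 5 added to each count, an exact binomial test, an assumed biological coefficient of variation (BCV) of 0.4, count filters, other thresholds, and removal of trends with gene length or with GC content and length (medians of 20 bins). GC content came from GENCODE release 29 (GRCh38), as did gene positions, which differ from those of the build the authors used and serve as annotation alone. Members and gene lists were chosen with earlier results of these data known. All members were named, with up to 3 called genes per list and pair by size of change, and the 3 genes nearest to DUSP6 in profile. Other genes named are marked in the text.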

Additional observations from a re-analysis of the deposited data

Results flagged for a closer look

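The change differed between the parental lines for 6 members, by a Wald test of the difference itself that covers counting error only (FDR at most 0.01, log2 difference of at least 1). Log2 differences (Hep3B-C pair minus Huh7-C pair) were -1.68 for DUSP1, -2.17 for SPRY1, -1.62 for SPRY2, -1.24 for SPRY4, -3.32 for SPRED1 and -1.53 for SPRED2. DUSP1 fell in both lines and fell further in Hep3B-C. SPRED1 was called in opposite directions. With TMM library sizes only SPRY1 and SPRED1 passed, where 48.2% of all genes did. With the length trend removed SPRY4 turned to 0.31, SPRED2 was -0.34 and not called, and SPRED1 was -1.38. With GC and length trends removed only DUSP1 and SPRY1 passed, and SPRED1 was -0.78. SPRY1, SPRY2, SPRY4 and SPRED2 were each called in at most 1 line, and 49.7% of all genes tested passed the same test.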

How the results depend on the processing

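Of 100 values of single genes under alternative scalings, trend removal or 5 added counts, 88 kept their call. Genes not called in the main fit count as kept there when they stayed uncalled, so the number says less of the calls themselves. The calls of DUSP1 in both pairs and of DUSP4, DUSP6, SPRY1 and SPRY4 in Huh7-C held under each of these 5 alternatives. Members called in Hep3B-C numbered 3 with TMM, 1 with GC and length trends removed (DUSP1) and 0 at an assumed BCV of 0.4. Of all genes, 39.7% were called with TMM and 23.1% with those trends removed, against 43.6%. At that BCV 0 were called in Huh7-C as well. At an unadjusted p under 0.05 the same edgeR exact test found DUSP1, DUSP10 and SPRED1 in Hep3B-C and DUSP4 and SPRY1 in Huh7-C. The FDR in that test was 0.036 for DUSP1, 0.20 for DUSP10 and 0.12 for SPRED1 in Hep3B-C, and 0.87 for DUSP4 in Huh7-C. The share of all genes under that unadjusted p was not counted, so these names are no result about the members. Members whose change differed between the lines numbered 2 with TMM and 2 with GC and length trends removed (added after the data had been seen), against 6. SPRED1 in Huh7-C was lost when the length trend was removed (log2 fold-change 0.70), and DUSP10 there passed with DESeq2 size factors (FDR 0.0093). DUSP6 in Hep3B-C also passed with DESeq2 size factors, where 22.9% of all genes were called up. In the comparison of HCSC with HCC, 0 members were called with or without the replicate block of parental line, in DESeq2, without the low-count filter and with each library left out (without the block, since no residual degree of freedom remains). Those last fits have 1 library in an arm, assumed to vary like the other arm, whose spread is that between parental lines (BCV 0.70 to 0.80), so their 0 calls show little of stability. The lowest adjusted p was 0.57, without Huh7. The causes were not tested. DUSP4 and DUSP10 rest on 4 to 26 counts in most libraries, which limits their ratios, and no value has a replicate culture.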
